A study of Mus musculus with 12 samples.

Results

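The nuclear genes of respiratory complex I were examined in resting CD8 T cells with a wild-type or a scurfy allele of Foxp3, a transcription factor gene that the scurfy allele inactivates. They were taken as every row of the deposited table whose symbol begins with Nduf. This gave 44 of 11581 genes, of which 37 are listed as subunits and 7, the Ndufaf genes, as assembly factors. The 37 include Ndufa4, now counted with complex IV, and Ndufab1, which sits in both arms of the enzyme. Ndufaf8 and Ndufb1 have no row and were not analysed here.

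Complex I oxidises NADH in the mitochondrial matrix and hands the electrons to ubiquinone in the inner membrane, while pumping protons. Its matrix arm carries the flavin and the iron-sulphur clusters, and its membrane arm carries the proton channels. Mitochondrial DNA encodes the core of the membrane arm, and the nucleus encodes the core of the matrix arm, all accessory subunits and the assembly factors, which build the enzyme but are not part of it. Resting T cells draw much of their ATP from oxidative phosphorylation.

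The cells came from mixed bone marrow chimeras, sampled 2 months after reconstitution. The strain is given as CD45.2+ C57BL/6 J. In the scurfy groups the marrow was a mixture of OT-1 Foxp3Scurfy CD45.1+/2+ and CD45.2+ donor marrow, and in the wild-type groups of OT-1 Foxp3wt CD45.1+/2+ and CD45.2+ donor marrow. OT-1 cells carry a transgenic T cell receptor for the SIINFEKL peptide of ovalbumin, so both genotypes share that receptor and the admixed CD45.2+ marrow. The cells are given as highly purified CD8 T cells, and the labels do not say whether cells of the CD45.2+ marrow were removed. The series has 12 samples in 4 groups of 3, with each genotype left unstimulated or given SIINFEKL peptide for 6 h. The 2 tables of the series are identical and carry the names of the 6 unstimulated libraries, so the comparison here is 3 unstimulated scurfy against 3 unstimulated wild-type libraries, and the stimulated cells were not analysed here. Whether each library is a separate mouse is not stated, so the p-values reflect variation among these 6 libraries that may be technical.

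The libraries held 8852518 to 23149523 reads over the table. Foxp3 has no row and gave no check of the genotype. All 8 markers of CD8 T cells had rows, and their summed level ran from 65552 to 72624 normalized counts in scurfy and from 59541 to 60674 in wild type. Of these 8, Cd3d rose by 0.76 on the log2 scale (limma adjusted p = 0.00551) and Cd2 by 0.43 (0.0376), while Cd8a and Cd8b1 were at 0.12 and 0.00. Neither marker of CD4 T cells (Cd4, Zbtb7b) nor of natural killer cells had a row. Of 13 B cell markers 7 had a row, all 7 with log2 fold changes below 0 (median -0.99). Of these 7 markers, 4 were lower in every scurfy library, as were 1587 of all 11581 genes. The summed levels of the B cell markers, 9895 to 11352 in scurfy and 10971 to 11753 in wild type, are mostly Ighm, at -0.08. H2-Aa, of MHC class II, fell, from 57.2, 84.1 and 73.9 normalized counts in the wild-type libraries to 15.7, 0 and 4.73 in the scurfy libraries (limma adjusted p = 0.0164), and H2-Ab1 was at 0 in scurfy libraries 2 and 3. Of the myeloid markers 2 of 5 had a row (Cst3 and Cd68), summing to 1463 to 1579 in scurfy and 850.2 to 1172 in wild type, and of the erythroid markers 1 of 5, Car2, at 101 to 156 and 232 to 315. Cst3 rose (0.59, limma adjusted p = 0.0202) and Car2 fell (-1.12, 0.0139). Leaving out single libraries ended these marker calls at least once, except that of Cd3d: any of the 6 for Cd2, wild type 2 or 3 for H2-Aa, scurfy 2 or 3 or wild type 2 for Cst3, and wild type 3 for Car2. The CD8 T cell, myeloid and erythroid sums did not overlap between the genotypes, and the part of these marker lists, the B cell list included, in the results below was not tested. In such bulk samples, fewer cells of a type and less RNA per cell cannot be told apart.

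Complex I subunit transcripts were mostly higher in scurfy cells, by small amounts, while the assembly factors lay on both sides of 0. Of the 37 subunits 5 rose (Ndufa3, Ndufs4, Ndufa5, Ndufb3 and Ndufc1), none fell and 32 did not pass a limma adjusted p of 0.05. That is 13.5% of them, against 4.47% of all genes called in either direction and 2.12% called higher, and 9.08% called higher among genes under 1000 bases, the length of 19 of the subunits. The log2 fold change was above 0 in 34 of 37 subunits (in 30 on library size alone), compared with 51.1% of all genes and 77.3% of those under 1000 bases, and its median was 0.34, a fold of 1.27, compared with 0.01 over all genes. In 22 of the 37 all 3 scurfy libraries lay above all 3 wild-type libraries, and in none did they lie below; over all genes the groups separated for 27.1%, and for 13.4% with scurfy higher. Of the 7 assembly factors none passed in limma, edgeR or DESeq2, none had an unadjusted p under 0.05, 4 of 7 were above 0, and their median log2 fold change was 0.12, or -0.02 on library size alone. Whether subunits and assembly factors differ from each other was not tested, and the assembly factors were measured less precisely, with a median standard error of 0.20 against 0.12 for the subunits.

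**Figure D1:**
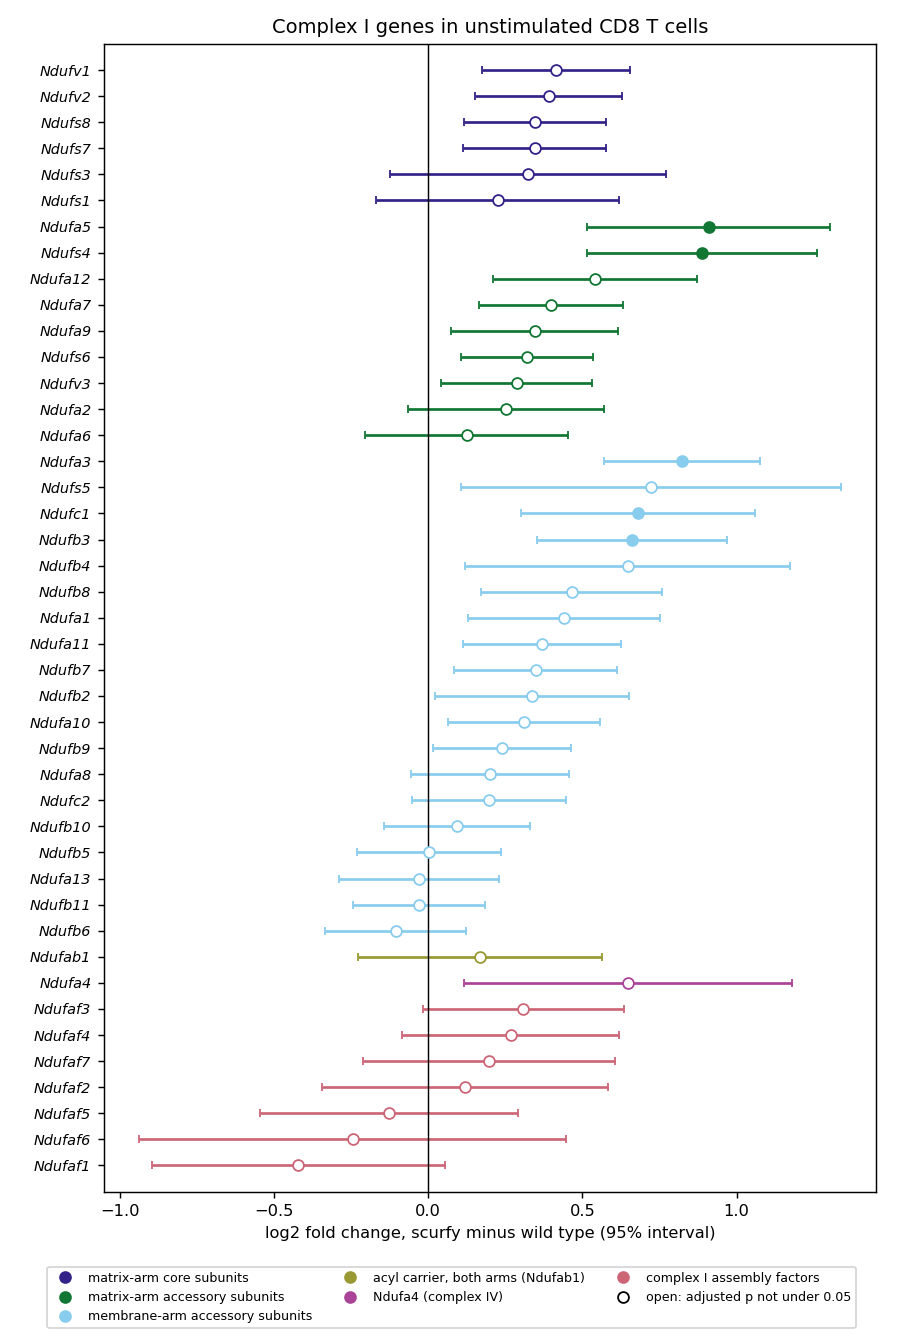
Log2 fold change of 43 of the 44 Nduf genes, scurfy minus wild type on the log2(normalized count + 1) scale, with the 95% interval from limma (3 libraries per group). Colours give the part of the enzyme and filled points passed an adjusted p of 0.05; the 5 filled points lie between 0.66 and 0.91, and the 7 assembly factors between -0.42 and 0.31.

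Ndufa3, a small accessory subunit of the membrane arm (ENSMUSG00000035674, chromosome 7 in GENCODE M21), had 3688, 3724 and 4399 normalized counts (reads divided by a size factor) in the scurfy cells, libraries 1 to 3 in order, and 2011, 2574 and 2108 in the wild-type cells. The lowest scurfy library lay well above the highest wild-type library. The means were 3937 ± 400.3 and 2231 ± 301 (SD, n = 3), a log2 fold change of 0.82 with a standard error of 0.12 and a limma adjusted p of 0.00324. Of the 5 calls it alone survived the omission of each library in turn, the adjusted p reaching 0.0187 at most.

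Ndufs4, an accessory subunit of the matrix arm whose loss in mice causes a fatal brain disease resembling Leigh syndrome, had 1230.3, 1572 and 1559 normalized counts in scurfy and 899.9, 939 and 563 in wild type. The groups did not overlap, and wild-type library 3 was the lowest of all. The log2 fold change was 0.89 (standard error 0.17, limma adjusted p = 0.0148). Without scurfy library 2 the adjusted p was 0.0553, and the call also ended without scurfy library 3.

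Ndufa5, an accessory subunit near the quinone-binding part of the matrix arm, showed the largest difference of the 44 genes. It had 569, 731 and 911 normalized counts in scurfy and 324, 478 and 368 in wild type, so that all scurfy libraries were higher. The log2 fold change was 0.91 (standard error 0.18, limma adjusted p = 0.0166), and the call ended without any 1 of 4 libraries (scurfy 2 or 3, wild type 1 or 3), the adjusted p reaching 0.0622 without wild-type library 3.

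The other calls were again in the membrane arm. Ndufb3, an accessory subunit of its distal part, had 1711, 1740.3 and 2521 normalized counts in scurfy and 1123, 1350.4 and 1251 in wild type, with scurfy library 3 standing above the rest. Its log2 fold change was 0.66 (standard error 0.14, limma adjusted p = 0.0217, up to 0.0741 without wild-type library 1 and also lost without wild-type library 3). Ndufc1, a small accessory subunit, had 821, 754 and 908 in scurfy and 617, 600.3 and 368 in wild type, with no overlap. Its log2 fold change was 0.68 (standard error 0.18, limma adjusted p = 0.045), and any 1 of 5 libraries left out ended the call, the adjusted p then reaching 0.126. The subunits called were 2 when wild-type library 3 was omitted, Ndufa3 and Ndufs4, and without scurfy library 2 or scurfy library 3 they were 2, Ndufa3 and Ndufb3.

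**Figure D2:**
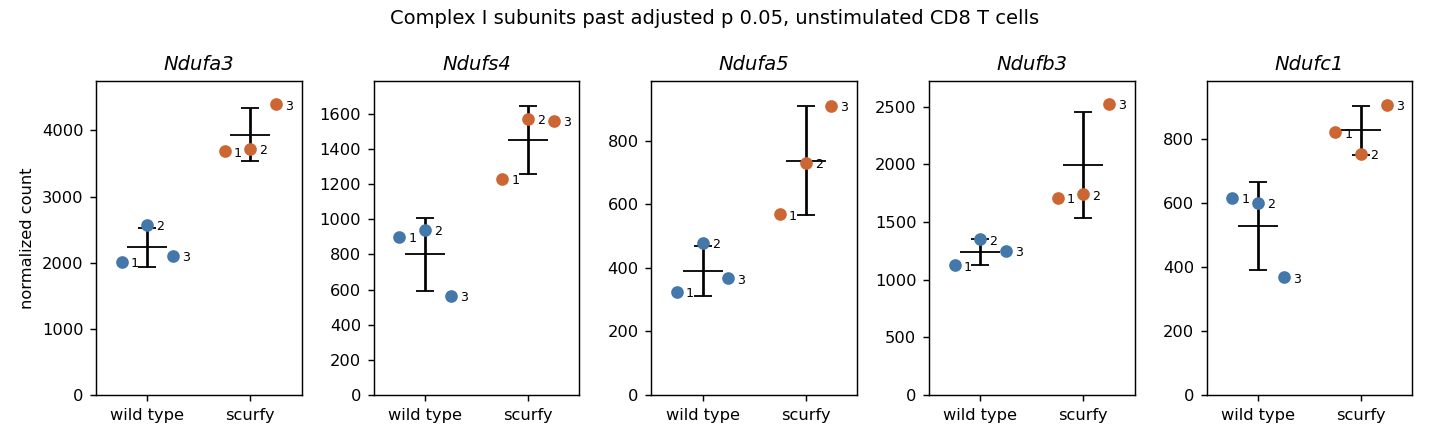
Normalized counts of the 5 subunits past an adjusted p of 0.05 in each unstimulated library (numbered points; axes start at 0), with the mean and SD of 3 libraries per group. In each panel the scurfy points lie above the wild-type points, as for Ndufa3, with 3688 to 4399 against 2011 to 2574.

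Promoter sequences are shown because several subunits moved the same way. Nuclear genes of the respiratory chain are known for sites of NRF1, of Ets factors such as GABP, and of YY1, and the letters searched on both strands were GCGC and TGCGC parted by any 1 base for NRF1, CCGGAAG for Ets and AAGATGGCG for YY1, with CCAAT and the GC box GGGCGG beside them. Windows of 300 bases from RefSeq on GRCm38.p6, from 250 before to 50 after the first listed start, were found by symbol for 39 of the 44 genes. The 3 rising genes with an NRF1, Ets or YY1 match are shown 5′ to 3′ on the gene's strand, with the match in capitals, AAGATGGCG in Ndufs4 and Ndufc1 and an NRF1 match in Ndufa5.
Ndufs4 (chr13:114388045-114388344, minus strand): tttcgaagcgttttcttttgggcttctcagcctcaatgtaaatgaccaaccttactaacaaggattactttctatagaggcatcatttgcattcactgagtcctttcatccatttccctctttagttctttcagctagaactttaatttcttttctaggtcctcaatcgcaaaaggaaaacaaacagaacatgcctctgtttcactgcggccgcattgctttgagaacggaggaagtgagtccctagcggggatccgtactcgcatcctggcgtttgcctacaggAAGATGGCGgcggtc
Ndufc1 (chr3:51408906-51409205, minus strand): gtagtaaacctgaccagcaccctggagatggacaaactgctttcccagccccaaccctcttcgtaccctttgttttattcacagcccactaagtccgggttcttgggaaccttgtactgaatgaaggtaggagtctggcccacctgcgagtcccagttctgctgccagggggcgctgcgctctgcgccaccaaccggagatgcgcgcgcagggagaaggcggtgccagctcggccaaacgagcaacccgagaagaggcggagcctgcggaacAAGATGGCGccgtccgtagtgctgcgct
Ndufa5 (chr6:24527477-24527776, minus strand): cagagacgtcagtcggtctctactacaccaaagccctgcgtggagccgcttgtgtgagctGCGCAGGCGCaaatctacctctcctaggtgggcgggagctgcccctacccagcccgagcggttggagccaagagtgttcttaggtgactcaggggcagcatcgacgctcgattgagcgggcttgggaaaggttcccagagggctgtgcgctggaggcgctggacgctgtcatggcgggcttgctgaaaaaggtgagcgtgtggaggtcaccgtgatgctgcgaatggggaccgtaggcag
None of these 3 motifs lay in the windows of Ndufa3 and Ndufb3. Among the windows of the 33 subunits matched, 5 (15.2%) held AAGATGGCG, against 3.87% of 7915 genes of the table and 1.49% of all 27025 genes with a window. All 5 matches began after the listed start, at bases 23 to 36, and the letters hold an ATG. Whether they lie there as factor sites or as coding sequence was not tested. NRF1 matches were in 7 of 33 (21.2%), against 12% of the table's genes and 4.78% of all genes. Ets matches were in 4 of 33 (12.1%), a lower share than the 21% of the table's genes and a higher one than the 9.12% of all genes. CCAAT was in 30.3% of the subunits' windows and 39.3% of those of the table's genes, and GGGCGG in 45.5% and 66.4%. Of the 6 assembly factors with a window 2 held an NRF1 match (Ndufaf4 and Ndufaf5), 1 an Ets match (Ndufaf1) and none AAGATGGCG. Subunits with an NRF1 match that did not pass were Ndufa6, Ndufa8, Ndufa11, Ndufb4, Ndufs5 and Ndufs6. With AAGATGGCG they were Ndufa9, Ndufs6 and Ndufs7. The subunits with an Ets match, Ndufb6 (log2 fold change -0.11), Ndufb7, Ndufs3 and Ndufs8, did not pass either. Whether a match goes with a rise was not tested. A match is a run of letters and does not show that a factor binds there.

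The core subunits of the matrix arm, which carry the electrons, had 7 rows, and none passed in limma. The 6 described here had log2 fold changes from 0.23 to 0.41, all above 0, on library size alone as well. The closest was Ndufv1, the flavin-containing subunit that binds NADH. It had 1122, 1203 and 1106 normalized counts in scurfy and 806, 892 and 878 in wild type. The groups did not overlap, and the log2 fold change was 0.41 (standard error 0.11, limma adjusted p = 0.0501), just short of the threshold. Its iron-sulphur partner Ndufv2 was at 0.39 with an adjusted p of 0.0606. The iron-sulphur subunits next to the quinone site, Ndufs7 and Ndufs8, were at 0.34 and 0.35 (0.0841 and 0.0804). In these 3 genes too every scurfy library exceeded every wild-type library. Ndufs3 (0.32) and Ndufs1 (0.23), the latter the largest subunit, had intervals that included 0. For Ndufs1 scurfy library 3 stood apart, at 1103 normalized counts against 601 to 687 in the other 5 libraries.

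Among the 9 accessory subunits of the matrix arm, 2 rose (Ndufs4 and Ndufa5), 7 did not pass, and all had log2 fold changes above 0, although those of Ndufa6 and Ndufa2 turned negative under some alternatives. Ndufa6 was at -0.0123 on library size alone, -0.186 with the length trend removed and -0.0559 without wild-type library 3, and Ndufa2 at -0.112 and -0.107 under the length trends of the basic and the comprehensive annotation. In 7 of the 9 the groups did not overlap. Ndufa12 had 728, 719 and 812 normalized counts in scurfy and 617, 545 and 409.6 in wild type, a log2 fold change of 0.54 (limma adjusted p = 0.0595). Ndufa7 followed at 0.40 (0.0525), Ndufa9 at 0.35 (0.13), Ndufs6 at 0.32 (0.0832), Ndufv3 at 0.29 (0.163) and Ndufa2 at 0.25 (0.346). Ndufa6 was at 0.12 with a 95% interval of -0.20 to 0.45. Its highest library was wild type 1, at 11818, and its lowest wild type 3, at 7170.0, so that the wild-type group spanned all scurfy values.

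The 19 accessory subunits of the membrane arm were the most divided. Beside the 3 that rose, 16 did not pass, and the log2 fold changes ran from -0.11 to 0.82. Groups were apart in 11 of the 19. Ndufs5 (0.72) and Ndufb4 (0.65) differed as much as the called genes, but at 46 to 156 reads per library their standard errors were 0.29 and 0.25 and their adjusted p 0.162 and 0.147. Ndufb8 was at 0.47, Ndufa1, an X-linked subunit needed for assembly, at 0.44, Ndufa11 at 0.37, Ndufb7 at 0.35, Ndufb2 at 0.34, Ndufa10 at 0.31 and Ndufb9 at 0.24. Ndufa8 and Ndufc2 were both at 0.20. The remaining 5 lay close to 0: Ndufb10 at 0.09, Ndufb5 at 0.00, Ndufa13 and Ndufb11 at -0.03 and Ndufb6 at -0.11. Ndufb11, also X-linked, had 4999, 5592 and 4869 normalized counts in scurfy and 5445, 5106 and 5204 in wild type, and its 95% interval of -0.24 to 0.18 is the narrowest of the 44. Genes of the same arm thus ranged from no detectable difference to a fold of 1.77 for Ndufa3.

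Listed apart from the single arms, Ndufab1, the mitochondrial acyl carrier protein that sits in both arms, was at 0.17 (adjusted p = 0.644). Ndufa4, which carries a complex I name but is now counted as a subunit of complex IV, had 819, 854 and 1540.3 normalized counts in scurfy and 673, 831 and 499 in wild type. Its log2 fold change of 0.65 did not pass in limma (adjusted p = 0.152), though it did in DESeq2 (adjusted p = 0.0345). The groups overlapped, and scurfy library 3 held its highest value.

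The assembly factors followed no common direction. Ndufaf3, which binds the quinone-site subunits during early assembly together with Ndufaf4, was the closest to passing. It had 523, 632 and 504 normalized counts in scurfy and 518, 424 and 398 in wild type, a log2 fold change of 0.31 (standard error 0.15, limma adjusted p = 0.26). Scurfy library 3 lay below wild-type library 1, so the groups overlapped. Ndufaf4 was at 0.27, Ndufaf7, a methyltransferase, at 0.20, and Ndufaf2, a relative of Ndufa12, at 0.12 (-0.02 on library size alone). Below 0 were Ndufaf5, which hydroxylates Ndufs7, at -0.13, Ndufaf6 at -0.25 and Ndufaf1, part of the complex that builds the membrane arm, at -0.42. For Ndufaf1 the scurfy libraries had 119, 167 and 205 normalized counts and the wild-type libraries 238, 205 and 201 (adjusted p = 0.296). All 7 intervals included 0, and all 7 had an upper bound under a 2-fold rise.

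By library, the subunits lay above their means in all 3 scurfy libraries and below in all 3 wild-type libraries, on the median. The median over the 37 subunits of the deviation from each gene's own mean (log2 scale) was 0.11, 0.20 and 0.15 for the scurfy libraries in order and -0.07, -0.17 and -0.25 for the wild-type ones. Wild-type library 3 held the lowest value of 16 subunits and scurfy library 3 the highest of 14. For the 7 assembly factors these medians were -0.04, 0.06 and 0.15 in scurfy and 0.07, 0.08 and -0.08 in wild type, so the groups overlapped. With the trend of exonic length described below removed, the subunit medians were 0.02, 0.07 and 0.12 in scurfy and -0.03, -0.08 and -0.16 in wild type.

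**Figure D3:**
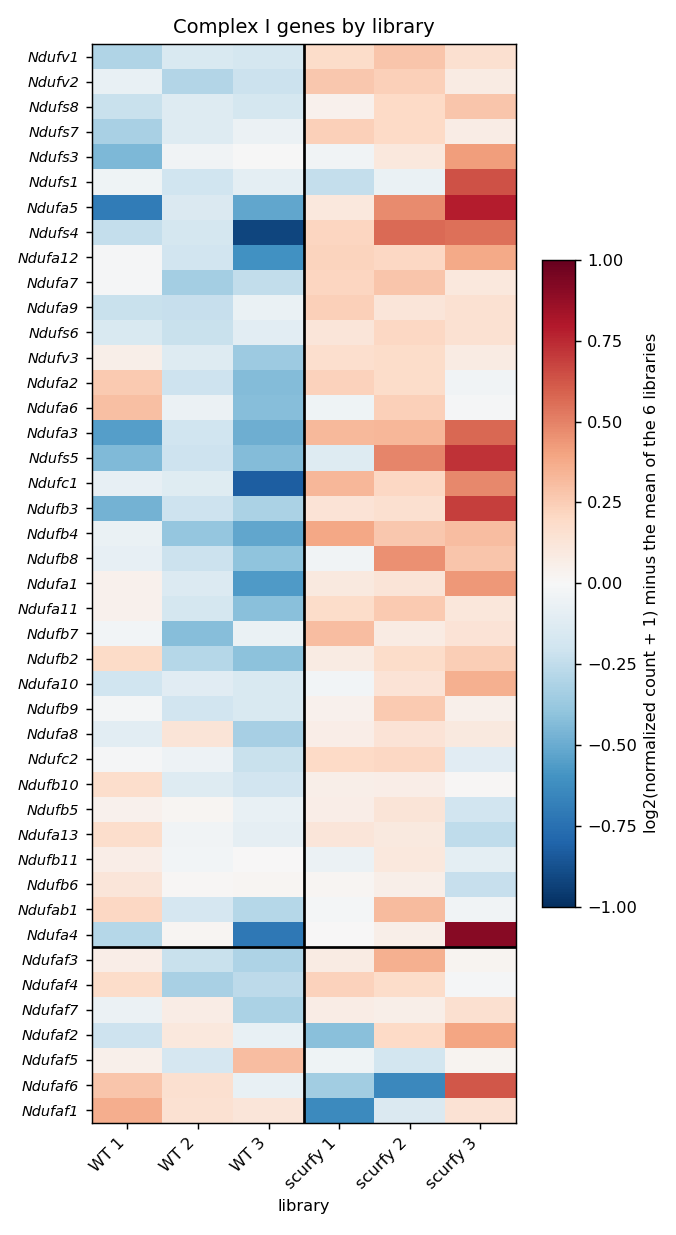
The 43 Nduf genes reported singly (rows) in each unstimulated library (columns), as log2(normalized count + 1) minus the mean of the 6 libraries, red above and blue below; the colours end at -1 and 1. The horizontal line parts the subunits from the 7 assembly factors and the vertical line wild type from scurfy, and most subunit rows turn from blue to red across it.

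Other genes of complex I were set beside these. Of 12 planned assembly factors with other names, 10 had a row and none passed in limma, edgeR or DESeq2, with a median log2 fold change of 0.05. Tmem126a had the smallest p, at -0.28 (adjusted p = 0.45). Of the 7 mitochondrially encoded subunits 4 had a row. Their median log2 fold change was -0.40, with 3 of 4 below 0, and scurfy library 3 was the lowest, at a median deviation of -0.81. None of them passed in limma, and 1 had an unadjusted p under 0.05. That was mt-Nd4, at 14909.6, 13101 and 8826 normalized counts in scurfy and 19334, 15593 and 18063 in wild type, every scurfy library being lower (log2 fold change -0.55, limma adjusted p = 0.0684, DESeq2 adjusted p = 0.0203). The nuclear genes of complexes II to V, by their symbols, had 12 of 43 that rose and none that fell, with a median of 0.22 and 30 of 43 above 0. For complex I subunits these figures were 5 of 37, 0.34 and 34 of 37, and the difference was not tested. Over all genes 2.12% were called higher and 51.1% were above 0. At the median, the genes of complexes II to V spanned 1021 exonic bases and the subunits 983. With the length trend described below removed, the median log2 fold change was 0.08 for complexes II to V and 0.23 for the subunits.

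Exonic length moved with the result. It counts the exonic bases of all basic GENCODE M21 transcripts of a gene together, so it can exceed the length of any 1 transcript. A gene long by this measure need not have a long main transcript. The subunits are short, with a median of 983 bases against 2952 over all genes, and 35 of 37 lie below that median, as do 6 of the 7 assembly factors. The 19 subunits under 1000 bases had a median log2 fold change of 0.34, close to the 0.32 of the 1377 genes of that length in the table. Of these 19, 3 rose (15.8%) and 17 were above 0 (89.5%), against 9.08% and 77.3% of the genes. The 12 of 1000 to 2000 bases had a median of 0.36 against 0.06 for 2214 genes, with 2 that rose (16.7%) and 11 above 0 (91.7%), against 3.03% and 56.8%. The 6 of 2000 bases or more had a median of 0.30 against -0.04 for 7980 genes, with 0 that rose and all 6 above 0, against 0.677% and 45.1%. With a smooth trend of length taken out of each library, the median of the subunits was 0.23, 26 of 37 stayed above 0, and 1 passed, Ndufs4 (0.86, limma adjusted p = 0.0308), against 249 genes of the table (2.15%, and 0.941% higher). Ndufa3 was then at 0.45 (0.0568), Ndufa5 at 0.68 (0.0704), Ndufc1 at 0.56 (0.109) and Ndufb3 at 0.39 (0.158). The part of length in the result was not tested further.

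**Figure D4:**
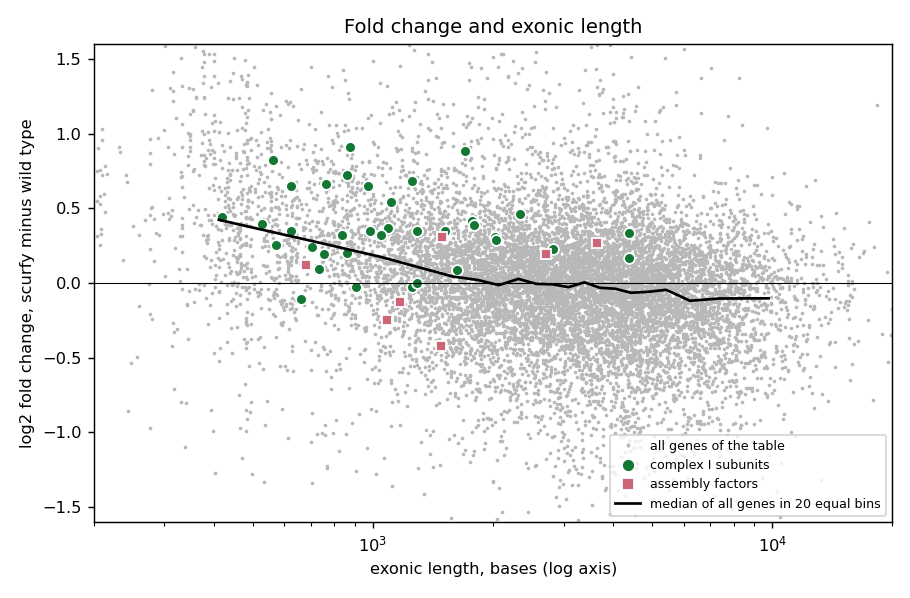
Log2 fold change (scurfy minus wild type) against exonic length in bases (log axis) for all genes (grey), the 37 complex I subunits (green circles) and the 7 assembly factors (red squares); 212 genes lie outside the axes. The black line, the median of all genes in 20 bins of equal size, is above 0 for short genes, and the subunits of 2000 bases or more all lie above 0, with a median of 0.30.

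Near-identical copies bear on 9 subunits. Processed pseudogenes with at least 95% identity over at least 150 bases in GENCODE M21 exist for Ndufa12, Ndufab1, Ndufb2, Ndufb3, Ndufb4, Ndufb11, Ndufs3, Ndufs5 and Ndufs6, and none of the pseudogenes has a row. No source used here says how reads shared with them were counted, which makes these values uncertain, that of Ndufb3 among the calls. Exons of 16 subunits and 2 assembly factors overlap exons of another gene, mostly on the opposite strand (4 bases with Tfpt for Ndufa3), and whether counting used strand is not given either.

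In the authors' deposited table, 13 of the 37 subunits and 0 of the 7 assembly factors have an adjusted p under 0.05, all 13 higher in scurfy, against 8.90% of its 10008 genes with an adjusted p and 4.15% higher. The 13 include Ndufa4, now counted with complex IV. DESeq2 on the recovered reads also called 13, but it repeats the authors' result and is not a second line of evidence. It gave the Nduf genes the same log2 fold changes and adjusted p-values, and 891 genes were called in each. With edgeR 6 subunits were called (4.84% of all genes). DESeq2 and edgeR both included the 5 calls of limma, to which edgeR added Ndufv1.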

How the data were processed

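Per the labels' protocols, poly-A RNA of purified CD8 T cells was copied from indexed poly-dT primers, linearly amplified as RNA, broken into fragments and read on an Illumina NextSeq 500. Trim Galore 0.4.4, STAR 2.6, featureCounts, edgeR and DESeq2, with build NCBIM37, are named without roles in the submitters' processing notes. The deposited signal is each library's reads over its own size factor (normalized counts), judged from the values: 100% of nonzero entries were whole reads to within 0.01 read. These recovered reads start at 2 in wild-type library 2 and at 1 elsewhere. The deposited table holds in addition, per the file headers, the authors' log2 fold changes with standard errors, a test score, and p-values. From these, counts of calls were used, and the log2 fold changes and adjusted p-values of the Nduf genes were compared with those of DESeq2. The filter that left these rows is not stated, and a missing row says nothing about a level.

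Groups and replicate numbers came from the titles. limma 3.58.1 (R 4.3.3) was fitted to log2(value + 1) over all 11581 genes and 6 libraries, with a variance trend, robust moderation and Benjamini-Hochberg adjustment at 0.05; calls are limma's unless another tool is named, and fold changes on that scale understate those of low genes. At this depth 3 reads are 1.45 to 3.99 normalized counts. The main limma test and the edgeR, DESeq2 and voom tests were run on simulated counts, and the other fits were not. Of the gene IDs, 11571 matched GENCODE M21 (GRCm38), which gave chromosomes and exonic lengths (basic transcript set); copies were sought with BLAST+ 2.17.0. No gene positions are given, since the submitters' build differs, apart from RefSeq promoter windows on GRCm38.p6. Every Nduf gene is named but 1, which is not reported here singly though it stays in the fits and counts; full values go to those called and to the smallest p of each list without a call, with further members shown after their values were seen. Members and lists were chosen with earlier results of these data known. Alternatives were edgeR 4.0.16, DESeq2 1.42.0 and voom on recovered reads, library size alone, pseudocounts of 0.5 and 4, a mean filter of 50, limma without its trend and robust moderation, the replicate block, a length trend removed, and each library left out.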

Additional observations from a re-analysis of the deposited data

How the results depend on the processing

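The median of the subunits kept its sign under every alternative run, while the number of calls and the sign of single subunits did not, 26 of 37 being above 0 with the length trend removed. The median log2 fold change of the subunits stayed between 0.33 and 0.37 with any 1 library left out, and was 0.21 on library size alone and 0.23 with the length trend removed. Library size alone lowered the median of all genes by 0.14 (-0.136 on the log2 scale), and relative to it the subunits were at 0.335 in both fits. The subunits called were 5 as reported, 13 in DESeq2, 9 with a mean of at least 50, 1 with the length trend removed, 2 with the length trend over the comprehensive annotation (chosen after seeing the data; Ndufa3 and Ndufs4), and 2 to 5 with 1 library left out. Without limma's variance trend and robust moderation 0 genes passed anywhere in the table, with 2106 at an unadjusted p under 0.05, 16 of them Nduf genes. All genes called were 518 as reported, 891 in DESeq2, 623 of 9188 with a mean of at least 50 (287 higher), and 929 on library size alone (168 higher, 761 lower). They were 249 and 302 with the length trend removed by the basic and the comprehensive annotation, and 113 to 403 with 1 library left out. Calls in the matrix-arm core were 0 as reported, 1 in edgeR and with a pseudocount of 4, 2 with the mean filter and 3 in DESeq2. In the matrix-arm accessory subunits they were 2 as reported, 5 in DESeq2, 4 with the mean filter, 1 under either length trend, 0 without the variance trend and 0 to 3 with 1 library left out. In the membrane-arm accessory subunits they were 3 as reported, 0 without the variance trend, 0 and 1 under the length trends and 1 to 3 with 1 library left out. Of the mitochondrially encoded subunits mt-Nd4 alone was called lower (1 gene) in DESeq2, on library size alone, under both length trends and in 0 to 1 genes with 1 library left out. The median of the matrix-arm core was 0.21 on library size alone, 0.24 with the length trend removed and 0.27 to 0.40 with 1 library left out. That of the matrix-arm accessory subunits was 0.32 to 0.45 with 1 library left out. That of the membrane-arm accessory subunits was 0.20 on library size alone, 0.0101 and 0.18 under the length trends and 0.25 to 0.42 with 1 library left out. That of the assembly factors was -0.02 on library size alone and -0.05 to 0.21 with 1 library left out. Under the length trends of the basic and the comprehensive annotation it was -0.19 and 0.11. The cause of these moves was not tested.

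None of the 5 called subunits changed sign under these alternatives. Among the others, with the length trend removed Ndufa1 was at -0.00197, Ndufb9 at -0.0611, Ndufc2 at -0.080, Ndufa2 at -0.112, Ndufa8 at -0.0352, Ndufb10 at -0.194, Ndufaf2 at -0.192, Ndufa6 at -0.186 and Ndufb5 at -0.103, and over the comprehensive annotation Ndufc2 was at -0.0894, Ndufa2 at -0.107, Ndufa8 at -0.0477 and Ndufb10 at -0.0686. On library size alone Ndufb10 was at -0.0442, Ndufaf2 at -0.017, Ndufa6 at -0.0123 and Ndufb5 at -0.134, and voom put Ndufb5 at -0.00114. With 1 library left out, Ndufs1 reached -0.0388, Ndufaf2 ran from -0.0498 to 0.36, Ndufa6 from -0.0559 to 0.305, Ndufaf6 from -0.618 to 0.016, Ndufb11 from -0.0896 to 0.0102, Ndufa13 from -0.0954 to 0.0918 and Ndufb5 from -0.0615 to 0.0999.

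Replicate numbers are shared between the groups, and the labels do not say what they mark. The deviations of same-numbered libraries from their group means had correlations of 0.00877, -0.0398 and -0.0695. Those of the other pairs of libraries ran from -0.0885 to 0.116. With 3 libraries per group these values cannot show whether the numbers mark pairs. With the replicate block 372 genes were called in place of 518, and 4 subunits in place of 5, Ndufc1 having an adjusted p of 0.0598. Precision was lowest for Ndufaf6, Ndufs5 and Ndufb4, with standard errors of 0.32, 0.29 and 0.25, while those of Ndufaf3 and Ndufaf4 (0.15 and 0.16) were below those of the called Ndufs4, Ndufc1 and Ndufa5.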
